A study of Homo sapiens with 14 samples.

Results

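Broad SKI domains are the peaks of 3000 bp or more in the SKI peak list of unmodified HL60 cells, replicate 1. They were chosen by the measured length of the peak alone and number 916 of the 54841 peaks in that list (1.67%), and the other 53925 peaks are shorter than 3000 bp. Chromatin immunoprecipitation with sequencing (ChIP-seq) had been run on HL60, an established human promyelocytic leukaemia line, with formaldehyde crosslinking and sonication. Broad domains were compared with the shorter peaks of their own list and set against 3 further lists, each from 1 sample. These were SKI in unmodified HL60 cells, replicate 2 (14431 peaks), RUNX1 in unmodified HL60 cells (5581 peaks) and SKI in a CRISPR/Cas9 control line of HL60 (14019 peaks). SKI and RUNX1 were each precipitated with 1 antibody, the control line entered with 1 sample, and the libraries from SKI-deleted cells were not used here. Signal under the SKI antibody that does not depend on SKI therefore cannot be told apart from SKI binding in these values. No source used here gives read depths.

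SKI is a transcriptional corepressor without known sequence-specific DNA binding of its own. It is brought to chromatin by partners such as SMAD proteins, and it recruits histone deacetylase complexes that contain NCOR and SIN3A. SKI is best known as a negative regulator of TGF-beta signalling, and in myeloid cells it restrains retinoic acid signalling and is overexpressed in part of acute myeloid leukaemias. RUNX1 is the sequence-specific factor that governs definitive blood formation, and it binds a core written TGTGGT or TGCGGT. A wide peak from a caller built for point-like binding can hold several binding sites that were merged, or a stretch of even signal, and the lists of other samples show how many separate peaks the same stretch gives.

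The sequences below are examples of promoters inside a broad domain that also held a RUNX1 peak, and they do not stand for all such promoters. They are the 250 bases before the RefSeq start of C11orf21, RUNX1 and IL6R in the build GRCh38.p14, written 5′ to 3′ along the gene's strand, with each match to TGTGGT or TGCGGT on either strand in capitals. These 3 genes were the ones, among those named here, whose RefSeq start lay within 500 bp of the start behind the deposited distances. C11orf21 is on the minus strand at chr11:2303141-2303390, RUNX1 on the minus strand at chr21:34888700-34888949, and IL6R on the plus strand at chr1:154405093-154405342.
C11orf21: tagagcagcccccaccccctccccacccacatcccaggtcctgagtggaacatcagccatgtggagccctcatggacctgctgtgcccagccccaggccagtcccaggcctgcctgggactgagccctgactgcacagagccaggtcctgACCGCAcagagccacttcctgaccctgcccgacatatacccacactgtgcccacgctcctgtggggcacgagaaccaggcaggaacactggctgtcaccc
RUNX1: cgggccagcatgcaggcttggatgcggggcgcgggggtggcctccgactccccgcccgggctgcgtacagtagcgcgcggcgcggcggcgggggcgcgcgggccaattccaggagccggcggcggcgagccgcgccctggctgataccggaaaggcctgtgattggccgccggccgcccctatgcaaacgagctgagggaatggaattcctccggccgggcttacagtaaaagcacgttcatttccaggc
IL6R: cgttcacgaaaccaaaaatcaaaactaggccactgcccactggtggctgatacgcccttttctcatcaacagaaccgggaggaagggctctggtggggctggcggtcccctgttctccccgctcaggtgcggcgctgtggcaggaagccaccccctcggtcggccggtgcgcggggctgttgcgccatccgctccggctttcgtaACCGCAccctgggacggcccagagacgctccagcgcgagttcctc
The window of C11orf21 held 1 match and had a GC content of 65.2% with an observed-to-expected CpG ratio of 0.161. Over the promoters of broad domains with a RUNX1 peak that ratio had a median of 0.827 and a lower quartile of 0.588. The RUNX1 window held 0 matches, with 71.2% GC and a CpG ratio of 1.02. The IL6R window held 1 match, with 65.2% GC and a CpG ratio of 0.832. A match is a description of letters in the window and not a binding site.

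Length chose the domains, so their length and the strength that goes with it are given as a description. Broad domains had a median length of 3511 bp (quartiles 3196 and 3972 bp, maximum 9096 bp), against 701 bp in shorter peaks. Their median fold enrichment over background, which is the authors' own value for each peak, was 51.0, against 18.5 in shorter peaks. The deposited −log10 p reached its ceiling of 300 or more in 80.6% of broad domains and in 8.19% of shorter peaks. Of the domains, 219 were at least 4000 bp long, 46 at least 5000 bp and 15 at least 6000 bp. The 3 domains just inside the threshold lay nearest to ZNF335, KBTBD2 and RSL24D1, each 3000 bp long, with fold enrichments of 15.5, 61.2 and 143. The 3 peaks just outside it lay nearest to C9orf69 (2999 bp), KANSL1L (2997 bp) and MIR4519 (2996 bp), with fold enrichments of 28.1, 72.0 and 26.7.

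Most broad domains lay at transcription start sites (TSS). Of the 916, 781 (85.3%, 95% Wilson interval 82.8 to 87.4) were in the deposited TSS class, against 34.4% of shorter peaks and 35.2% of the whole list. Intergenic domains numbered 51 (5.57%, against 22.7% of shorter peaks), intronic ones 38 (4.15% against 31.0%), exonic ones 32 (3.49% against 5.56%) and upstream ones 14 (1.53% against 6.35%). A longer peak reaches a start from farther away, and 82.5% of domains held a start within their bounds, against 24.2% of shorter peaks. The share whose centre lay within 1000 bp of a start does not reward length in that way, and it was 64.6% in broad domains, against 29.4% in shorter peaks and 29.9% in the whole list. Intervals cover counting error only.

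The nearest gene was protein-coding for 738 domains (80.6%), against 62.5% of shorter peaks and 62.8% of the list. Pseudogenes were nearest to 22 domains (2.40%), against 11.8% of shorter peaks. Long intergenic RNAs were nearest to 63 domains (6.88%, against 10.1% of shorter peaks) and microRNA genes to 9 (0.983% against 2.87%). Antisense RNAs were nearest to 57 (6.22%), close to the 5.46% of shorter peaks. By chromosome, and leaving out chromosome Y (9 peaks) and unplaced sequence (60 peaks), neither of which had a broad domain, the domains made up between 0.619% of peaks (9 of 1453, chromosome 8) and 3.26% (48 of 1473, chromosome 22).

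Domains at protein-coding starts reached to both sides of the start. In the 645 domains that held such a start, the domain extended a median of 1657 bp upstream and 1956 bp downstream. It reached farther downstream than upstream in 58.1% of broad domains and in 56.8% of the 11085 shorter peaks with such a start, so the slight lean into the gene was alike in both. Summits of the other lists inside these domains were densest just upstream of the start. The 250 bp before the start held 202 summits of SKI replicate 2, 173 of the control line and 31 of RUNX1, and the 250 bp after it held 139, 108 and 19. Within 250 bp of the start on either side lay 33.0% of the replicate 2 summits, 31.2% of the control line summits and 29.2% of the RUNX1 summits in these domains, so most summits lay in the flanks.

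**Figure D1:**
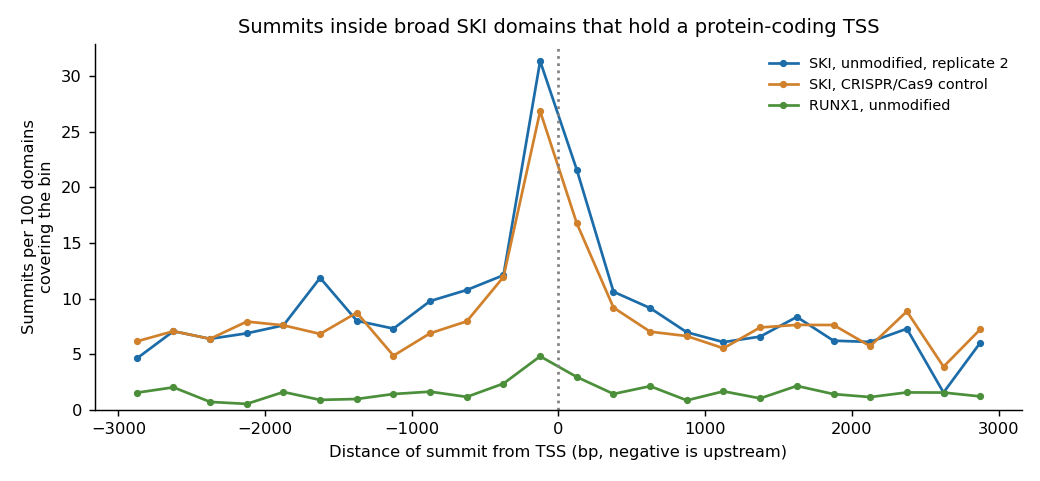
Summits of 3 peak lists inside the 645 broad SKI domains that hold a protein-coding TSS, per 100 domains covering each 250 bp bin (vertical axis), by distance from the TSS in bp (horizontal axis, negative is upstream). All 3 lists peak in the bin just before the start (202, 173 and 31 summits) and have lower levels in both flanks.

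The promoters under broad domains were rich in GC. Of the 631 protein-coding genes with a start in a broad domain, 530 (84.0%) matched the RefSeq promoter table, and their 250 bases before the start had a median GC content of 68.4%. Genes with starts in shorter peaks only had 64.8%, and all tabulated promoters had 58.0%. The CpG ratio had medians of 0.835 in the broad set, 0.824 in the shorter set and 0.556 over the table. TGTGGT on either strand was found in 8.87% of broad promoters (6.73 to 11.6), 8.13% of shorter-peak promoters and 10.9% of all promoters of the same length. TGCGGT was found in 8.30%, 8.12% and 5.69% in the same order, and CAGAC, a core bound by SMAD proteins, in 32.5%, 36.1% and 37.8%. In the promoters of broad domains with a RUNX1 peak, TGTGGT was found in 11.6% (7.18 to 18.3), against 7.98% (5.71 to 11.1) in those without, and the intervals overlap. RefSeq starts can differ from the starts behind the deposited distances, and in the 291 broad genes with the same start the median GC content was 70.0%, against 65.2% in 5775 shorter-peak genes.

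Both other SKI samples had peaks in nearly all broad domains. SKI replicate 2 had a peak in 821 domains (89.6%, 87.5 to 91.4), against 21.5% of shorter peaks and 22.6% of the list. The control line also had a peak in 821 domains (89.6%), against 22.1% of shorter peaks and 23.2% of the list. Both lists had a peak in 768 domains (83.8%), against 15.3% of shorter peaks and 16.4% of the list, while 53 domains were met by replicate 2 alone and 53 by the control line alone. A longer peak has more room for overlap. In a fixed window of 500 bp each side of the summit, both lists had a peak in 77.7% of broad domains, replicate 2 in 83.7% (22.5% of the list) and the control line in 86.7% (23.4% of the list). Among peaks at the −log10 p ceiling, an alternative added after the data were seen, replicate 2 had a peak in 95.4% of 738 broad domains and 91.3% of 4416 shorter peaks, and the control line in 96.2% and 96.0%. At that strength the control line shares were within their counting intervals of each other, and the replicate 2 share was slightly higher in broad domains.

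Many of the same stretches held several separate peaks in the other SKI samples, and many held 1. In replicate 2, 336 domains held 1 peak, 317 held 2, 141 held 3, 20 held 4 and 7 held 5. In the control line, 429 domains held 1 peak, 311 held 2, 73 held 3, 7 held 4 and 1 held 5. The share with 2 or more was 52.9% for replicate 2 (485 domains, 49.7 to 56.2), against 1.74% of shorter peaks and 2.59% of the list. It was 42.8% for the control line (392 domains), against 0.979% of shorter peaks and 1.68% of the list. Replicate 2 put 3 or more peaks in 168 domains (18.3%), against 0.0779% of shorter peaks and 0.383% of the list. The control line put 3 or more in 81 domains (8.84%), against 0.0204% of shorter peaks and 0.168% of the list. Shorter peaks had a median length of 701 bp, and the peaks of replicate 2 and the control line had medians of 472 and 691 bp. Most shorter peaks thus had little room for several separate peaks, so the length rule sets part of these contrasts. How large that part is was not tested. Per kb, broad domains held 0.445 replicate 2 peaks (0.422 to 0.468), against 0.258 in shorter peaks, and 0.384 control line peaks (0.364 to 0.406), against 0.255 in shorter peaks. At the −log10 p ceiling the per-kb order turned, with 0.486 replicate 2 peaks in broad domains and 0.635 in shorter peaks. For the control line the values there were 0.416 and 0.620 per kb. Between 91.3% and 96.2% of either set held such a peak there, and median length was 3606 bp in broad domains and 1610 bp in shorter peaks. Division by length enters the per-kb values over all peaks and at the ceiling alike, and its part in either order was not tested. Neither order can therefore be read as a difference in density.

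**Figure D2:**
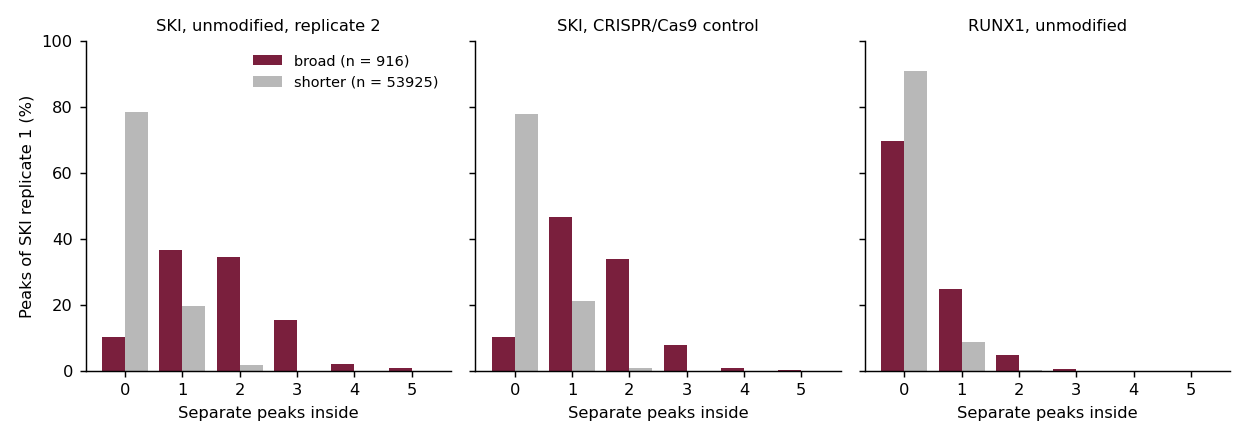
Share of broad SKI domains (n = 916, dark bars) and of shorter peaks (n = 53925, grey bars) in percent (vertical axis) by the number of separate peaks of each other list inside (horizontal axis). Replicate 2 put 2 or more peaks in 52.9% of broad domains and the control line in 42.8%, and RUNX1 put 2 or more in 5.24%.

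The peaks inside were narrow and covered part of the domain. Replicate 2 peaks in broad domains had a median width of 557 bp, against 461 bp for those in shorter peaks, and control line peaks 916 bp, against 674 bp. Peaks of replicate 2 covered a median of 28.4% of a broad domain's length and those of the control line 42.4%. Their median fold enrichment was 10.7 in broad domains and 10.4 in shorter peaks for replicate 2, and 12.0 and 11.6 for the control line. The strongest replicate 2 peak of each broad domain had a median of 13.4, against 10.7 in shorter peaks, and the strongest control line peak 14.5, against 12.0. The nearest replicate 2 summit lay a median of 33 bp from the domain's own summit, and within 100 bp of it in 72.8% of the 821 domains. For the control line the median was 41 bp. The separate peaks inside were assigned to 2 or more different genes in 101 of the 485 domains with several replicate 2 peaks, and in 82 of the 392 with several control line peaks.

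Width itself was seldom seen again. Replicate 2 held 2 peaks of 3000 bp or more, the control line 21 and RUNX1 0. Such a peak of another SKI list met 14 broad domains (1.53%) and 0 shorter peaks, which is 0.0255% of the list. At 2000 bp, 105 domains were met (11.5%), against 0.102% of shorter peaks and 0.292% of the list. Of the 21 wide control line peaks, 14 lay in a broad domain and 7 in no peak of replicate 1. Of the 2 wide replicate 2 peaks, 1 lay in a broad domain and 1 in no peak of replicate 1. The replicate 1 list holds 72.9% of its row numbers by a filter that is not stated. A peak taken out of it therefore cannot be told apart from one that was never called. Ranked by length within their own list, the 916 longest replicate 2 peaks lay in a broad domain in 26.4% of cases, against 10.4% of that whole list, and those of the control line in 33.6%, against 9.29%.

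BCL11A, a zinc-finger repressor known for silencing fetal globin genes, had the longest domain. It spanned 9096 bp at chr2:60775982-60785077 (hg19, as are the coordinates of all domains) with a summit 4 bp from the TSS and a fold enrichment of 120. Replicate 2 had 2 peaks in it, the stronger at 95.6-fold, the control line had 5, the strongest at 76.6-fold, and RUNX1 had 0. NEAT1, the long non-coding RNA that scaffolds paraspeckles, had the next, 7320 bp at chr11:65188236-65195555, with 2 peaks in each other SKI list and 1 RUNX1 peak at 8.50-fold. KLF16, a Krüppel-like zinc-finger factor, had a domain of 7092 bp that began within 100 bp of the end of another domain. Together they made the longest tract of peaks at most 100 bp apart, 11284 bp at chr19:1854174-1865457. Such close neighbours were found for 96 domains (10.5%), against 6.75% of shorter peaks.

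TLE3, a Groucho-family corepressor, had the next longest domain, 6758 bp, with 2 replicate 2 peaks and 4 control line peaks. SIN3A, the scaffold of a histone deacetylase complex, had one of 6437 bp, with 2 replicate 2 peaks and 3 control line peaks. BRD2, a bromodomain protein that binds acetylated histones, had one of 6629 bp that broke into 5 replicate 2 peaks and 4 control line peaks, the most of any domain. The domains of MAZ (6666 bp), MIDN (6485 bp), RP11-554F20.1 (6470 bp) and PTMA (6401 bp) completed the 10 longest. All 10 were in the TSS class and had peaks in both other SKI lists, against 93.5% and 95.7% of the 46 domains of 5000 bp or more. A RUNX1 peak lay in 3 of the 10, at NEAT1, MIDN and RP11-554F20.1, against 50% of those 46 and 30.1% of all broad domains.

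The domain at UBA7, which encodes the enzyme that activates the ubiquitin-like protein ISG15, came next with 8 separate peaks, 5 of replicate 2 and 3 of the control line. S100A11, a calcium-binding protein gene, also had 8 (4 and 4), as did ACTG1, the gene of cytoplasmic gamma-actin (5 and 3). The others among the 10 were GSE1, RP11-283G6.3, RP11-247A12.8 and MLXIP, and BCL11A and MIDN were also among them. Each of these had 7 peaks in all.

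RUNX1 peaks were found in 276 broad domains (30.1%, 27.2 to 33.2), against 8.86% of shorter peaks and 9.21% of the list. Of these domains, 228 held 1 RUNX1 peak, 43 held 2 and 5 held 3. The share with 2 or more was 5.24% in broad domains (48), against 0.167% of shorter peaks and 0.252% of the list, and the 5 domains with 3 compare with 0.0109% of the list. Shorter peaks had less room for several RUNX1 peaks as well. Per kb the sets did not separate, with 0.0970 RUNX1 peaks in broad domains (0.0868 to 0.108) and 0.0999 in shorter peaks (0.0971 to 0.103). Within a fixed window of 500 bp each side of the summit, a RUNX1 peak was present in 25.2% of broad domains, against 8.92% of shorter peaks and 9.20% of the list.

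Position class moved with these values. RUNX1 was found in 25.4% of TSS-class broad domains (198 of 781), against 6.03% of TSS-class shorter peaks, and in 57.8% of the 135 broad domains outside that class, against 10.3% of such shorter peaks. The highest shares were those of intergenic (64.7%), intronic (60.5%) and exonic (56.3%) domains. Over peaks of all strengths, the per-kb value within each class was higher in broad domains. It was 0.0787 against 0.0515 in the TSS class and 0.207 against 0.140 outside it. The pooled per-kb values joined a set that was 85.3% TSS class to a set that was 34.4% TSS class.

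Strength moved with them too, and among peaks at the −log10 p ceiling the pooled order turned. Among peaks at the −log10 p ceiling, RUNX1 was found in 35.2% of broad domains (260 of 738, 31.9 to 38.7) and in 48.0% of shorter peaks (2120 of 4416, 46.5 to 49.5). The ceiling does not match the sets in fold enrichment, whose median there was 58.0 in broad domains and 72.8 in shorter peaks. Nor does it match them in class, since the TSS class held 616 of the 738 broad domains and 1789 of the 4416 shorter peaks there. Within class the shares at that strength were close, at 29.9% of broad domains and 30.8% of shorter peaks in the TSS class. Outside it they were 62.3% and 59.7%. Per kb, broad domains at that strength had 0.112 RUNX1 peaks, against 0.295 in shorter peaks. The per-kb value at that strength was lower in broad domains within both classes too. It was 0.0912 against 0.159 in the TSS class and 0.222 against 0.420 outside it. Median length over both classes at that strength was 3606 bp in broad domains and 1610 bp in shorter peaks. The part of length in the per-kb values was not tested. Against shorter peaks of 2000 to 2999 bp alone, whose RUNX1 share was 20.2%, broad domains were still higher. These comparisons too were added after the data were seen. Median fold enrichment and the TSS-class share both rose with length in this list. Strength and class did not rise together among broad domains, whose median fold enrichment was 47.6 in the TSS class. In the other classes it lay between 57.6 and 70.0. The separate parts of length, strength and class in the RUNX1 share were not tested.

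**Figure D3:**
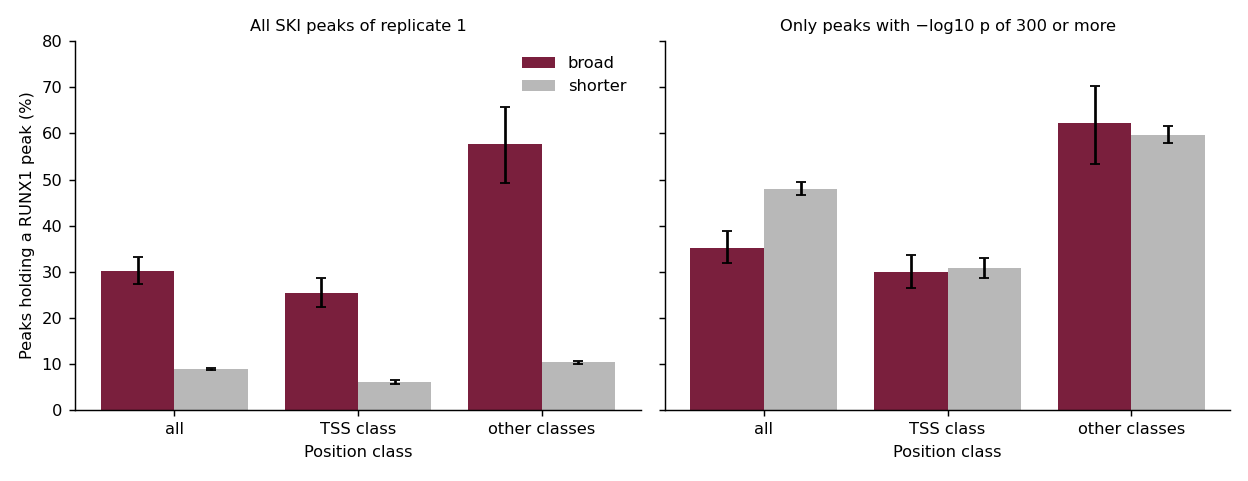
Share of SKI peaks of replicate 1 that hold a RUNX1 peak, in percent with 95% Wilson intervals as bars, for broad domains (dark) and shorter peaks (grey), by position class. Over all peaks (left) broad domains are higher, at 30.1% against 8.86%, and among peaks with −log10 p of 300 or more (right) they are lower, at 35.2% against 48.0%.

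The gradient with length ran through the threshold without a step. RUNX1 was present in 1.25% of peaks under 500 bp, 6.35% at 500 to 999 bp, 17.3% at 1000 to 1999 bp, 20.2% at 2000 to 2999 bp, 27.1% at 3000 to 3999 bp, 37.0% at 4000 to 4999 bp and 50% at 5000 bp or more. Both other SKI lists were present in 0.420%, 6.27%, 34.5%, 63.4%, 80.8%, 93.1% and 95.7% of the same bins. RUNX1 peaks per kb were highest in the bin of 1000 to 1999 bp (0.127) and lay between 0.0926 and 0.112 in every bin from 2000 bp up.

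**Figure D4:**
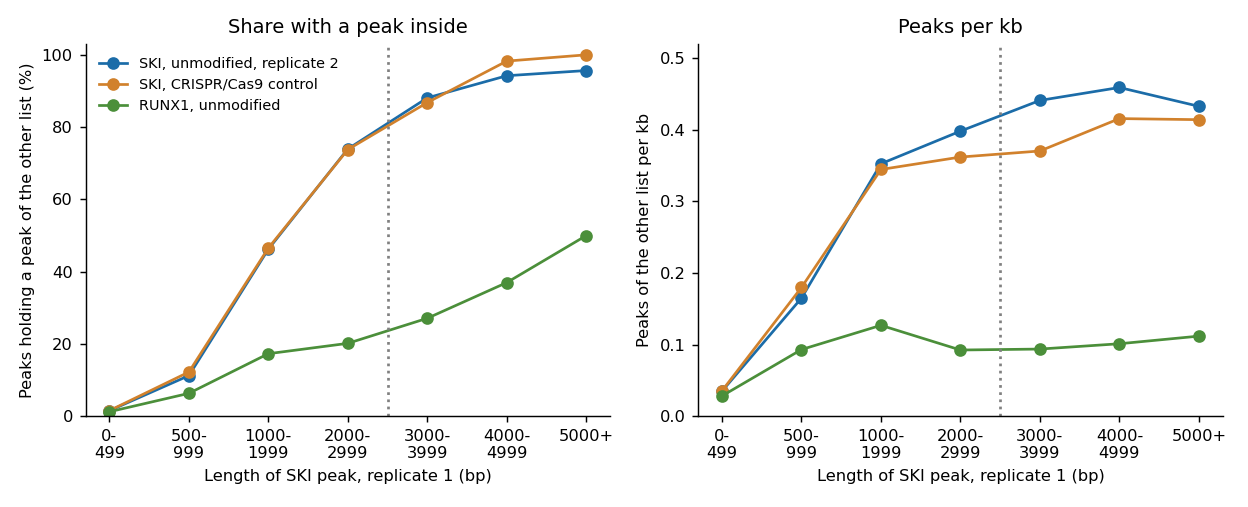
Share of SKI peaks of replicate 1 that hold a peak of each other list, in percent (left), and peaks of that list per kb (right), by length of the SKI peak in bp (horizontal axis). The dotted line marks 3000 bp, and the RUNX1 share runs from 1.25% in the shortest bin to 50% in the longest with no step at the line.

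The RUNX1 peaks inside broad domains were close in median strength to those in shorter peaks, and most overlapped a SKI peak of each other sample. The 329 of them had a median fold enrichment of 18.5 (quartiles 12.5 and 30.6), against 18.9 for the 4854 in shorter peaks. Their summits lay a median of 51 bp from the nearest replicate 2 summit and 45.5 bp from the nearest control line summit in the same domain. A replicate 2 peak overlapped 296 of the 329 (90.0%, 86.2 to 92.8), against 61.0% of the RUNX1 peaks in shorter peaks and 60.4% of the whole RUNX1 list. A control line peak overlapped 315 (95.7%, 93.0 to 97.4), against 72.3% of those in shorter peaks and 70.7% of the list. The RUNX1 summit nearest to the domain's own summit lay a median of 48 bp from it.

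Domains with RUNX1 had higher median strength in all 3 SKI lists. Their median fold enrichment was 68.2, against 43.4 in domains without RUNX1. The strongest replicate 2 peak inside had a median of 19.0, against 11.9, and the strongest control line peak 28.4, against 12.0. The TSS class held 71.7% of domains with RUNX1 and 91.1% of those without. Within the TSS class the order was the same, with a median fold enrichment of 67.7 in domains with RUNX1 and 42.1 in those without.

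The 5 domains with 3 RUNX1 peaks show the arrangement. At ATG16L2, a relative of the autophagy gene ATG16L1, the domain of 4791 bp at chr11:72523656-72528446 held RUNX1 peaks at 16.9-, 40.1- and 14.0-fold. Replicate 2 had 5 peaks there, between 7.95- and 33.5-fold, and the control line had 1 peak of 4557 bp that covered nearly the whole domain. This was the one stretch of the 5 that was wide in a second sample. At RHOH, which encodes a GTPase restricted to blood cells, the domain of 3694 bp held RUNX1 peaks at 7.74-, 17.1- and 9.28-fold, 2 replicate 2 peaks and 1 control line peak.

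The domain nearest to TMCC2 was intergenic, 3396 bp with its summit 27681 bp from the start, and held RUNX1 peaks at 15.5-, 33.0- and 117-fold. Replicate 2 put 3 peaks there, at 40.6-, 8.26- and 23.6-fold, and the control line 2, at 55.3- and 37.2-fold. The domain nearest to CD200R1L, also intergenic, held RUNX1 peaks at 22.6-, 17.7- and 16.7-fold, and the first and last of them each met a peak of both other SKI lists, while the middle one met neither. The exonic domain at AIM1 held RUNX1 peaks at 13.6-, 12.5- and 8.12-fold, with 1 peak in each other SKI list. Among the longest domains with 2 RUNX1 peaks were those of SPN, the leukocyte surface protein CD43 (6121 bp, strongest RUNX1 peak 74.8-fold), ELF4, an ETS factor (5791 bp, 48.9-fold), and CCND3, cyclin D3 (5397 bp, 72.0-fold). Those of IL6R, the interleukin-6 receptor (5314 bp, 25.6-fold), and C11orf21 (5181 bp, 81.6-fold) followed, and their promoter windows are among those printed above.

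A few genes carried several domains. The 916 domains had 870 distinct nearest genes, of which 36 had 2 domains and 5 names had 3, namely RUNX1, DNAJB12, BCOR, RHOF and Y_RNA, the last a name shared by separate loci. RUNX1 itself had domains of 5012 bp at chr21:36257908-36262919, 3533 bp at chr21:36397462-36400994 and 4078 bp at chr21:36418967-36423044. Their fold enrichments were 119, 94.7 and 112, and each held 1 RUNX1 peak, at 51.8-, 61.4- and 42.4-fold. The first and last were in the TSS class and the middle one was intronic, and all had peaks in both other SKI lists. BCOR, a corepressor of BCL6, also had 3 domains, at 102-, 147- and 116-fold, and none of them held a RUNX1 peak. The 3 domains of DNAJB12, a heat-shock cochaperone gene, lay within 100 bp of each other over 9926 bp. Of all neighbouring pairs of domains, 7 lay within 1000 bp and 33 within 10000 bp.

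Of the protein-coding genes nearest to any peak of the list, 702 of 13516 (5.19%) were nearest to a broad domain, and 199 of the 702 (28.3%) had a RUNX1 peak in it. Each list below is counted over its genes that were nearest to any peak, and its counts stand beside these 2 shares. In the TGF-beta and SMAD list, 6 of 30 genes (20%, against 5.19% of all) had a domain, and 3 of these 6 held RUNX1. They were the ligand TGFB1, the activin receptor ACVR1B, the inhibitory SMADs SMAD6 and SMAD7, and the targets ID2 and SKIL, the paralogue of SKI. SMAD6 had fold enrichments of 128 in replicate 1, 157 in replicate 2 and 176 in the control line. At SKIL, singled out after its values were seen, they were 189, 218 and 239, with 1 peak in each list, and 189 was the highest fold enrichment among the 916 domains. ACVR1B had 63.4, 78.5 and 73.3, and TGFB1 had 61.9, 12.9 and 33.7 in the same lists. SMAD7 had 2 domains, and the one of 4322 bp had 50.5, 32.5 and 50.5. Each list's fold enrichment is relative to its own background. ID2, also given after its values were seen, had 90.6, 15.5 and 15.5. On that scale SKIL, SMAD6 and ACVR1B had higher values in both other SKI lists than in replicate 1, and TGFB1 and ID2 had lower ones in both. The SMAD7 domain of 4322 bp had a lower one in replicate 2.

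Corepressor genes had a domain in 9 of 27 cases (33.3%, against 5.19% of all), among them CHD4, CTBP2, RCOR3, SIN3A, TBL1X, TBL1XR1, TLE3 and TLE4, and 2 of the 9 held RUNX1 (RCOR3 and TBL1X), against 28.3% of all genes with a domain. The genes named encode subunits of the NCOR complex (TBL1X, TBL1XR1), Groucho corepressors (TLE3, TLE4) and parts of other histone deacetylase complexes. TBL1XR1 had 95.6-fold enrichment in replicate 1, 39.8-fold in replicate 2 and 69.9-fold in the control line. TLE4 was weaker, at 31.5-, 8.80- and 9.27-fold.

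Among haematopoietic transcription factors, 9 of 29 (31.0%, against 5.19% of all) had a domain, namely BCL6, CEBPA, CEBPB, ETV6, FLI1, LMO2, LYL1, RUNX1 and RUNX2. RUNX1 peaks lay in the domains of 6 of the 9, all but BCL6, CEBPA and CEBPB, against 28.3% of all genes with a domain. CEBPA, the factor that drives granulocyte commitment, had the longest, 6239 bp, with 2 replicate 2 peaks and 3 control line peaks. The domain of RUNX2, a paralogue of RUNX1, had 3 and 3 with a RUNX1 peak at 19.6-fold, and that of LMO2, a bridging factor of blood stem cells, had 3 and 1 with a RUNX1 peak at 31.6-fold.

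In the retinoic acid list, 7 of 20 genes (35.0%, against 5.19% of all) had a domain, and 4 of the 7 held RUNX1, against 28.3% of all genes with a domain. The receptors RARA, RARG and RXRA were among them, with NRIP1, a corepressor of nuclear receptors, DHRS3, a retinal reductase, PRAM1 and UBA7. RARA had 2 domains. That of 3896 bp, at 51.8-fold, had 1 peak in each of the 3 other lists. The other, 3520 bp at 30.3-fold, had 2 replicate 2 peaks, 1 control line peak and 0 RUNX1 peaks. PRAM1 had 5166 bp, 3 peaks in each other SKI list and 2 RUNX1 peaks, the stronger at 42.9-fold.

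Immediate-early genes and their feedback regulators had a domain in 11 of 32 cases (34.4%, against 5.19% of all), and 0 of these 11 held a RUNX1 peak, against 28.3% of all genes with a domain. They comprised the AP-1 genes JUN, JUND and FOSB, the signalling inhibitors DUSP6, SPRED2 and SPRY1, and BTG1, IER5, KLF10, NAB2 and ZFP36L1. DUSP6, the phosphatase of ERK kinases, had 4521 bp at 75.9-fold, with 24.3-fold in replicate 2 and 15.2-fold in the control line. NAB2, a corepressor of EGR factors, had 4540 bp at 76.0-fold, JUND 4642 bp at 51.8-fold and JUN 4150 bp at 36.7-fold, each with 2 or more peaks in both other SKI lists. Recurrence was not uniform over the list, and 3 members singled out after their values were seen lacked it in part. FOSB (23.2-fold) had no peak in either other SKI list, BTG1 (20.9-fold) none in the control line, and ZFP36L1 (41.3-fold) none in replicate 2.

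Myeloid maturation genes had a domain in 3 of 32 cases (9.38%, against 5.19% of all), and 2 of the 3 held RUNX1. AZU1, a neutrophil granule protein, had 4686 bp with a RUNX1 peak at 79.8-fold, NCF1, a subunit of the phagocyte oxidase, had 3061 bp with one at 40.2-fold, and MPO, myeloperoxidase, had 3294 bp with none. Inflammatory and NF-kappaB genes had 2 of 30 (6.67%, IL6R and NFKBIE), ribosomal protein genes 1 of 25 (4%, RPL10) and neuronal genes 0 of 10. Over these 9 lists, which hold 278 distinct genes because 1 gene stands in 2 of them, 48 genes had a broad domain. Genes of different lists differ in how often any peak lies near them, and the counts describe the lists only.

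**Figure D5:**
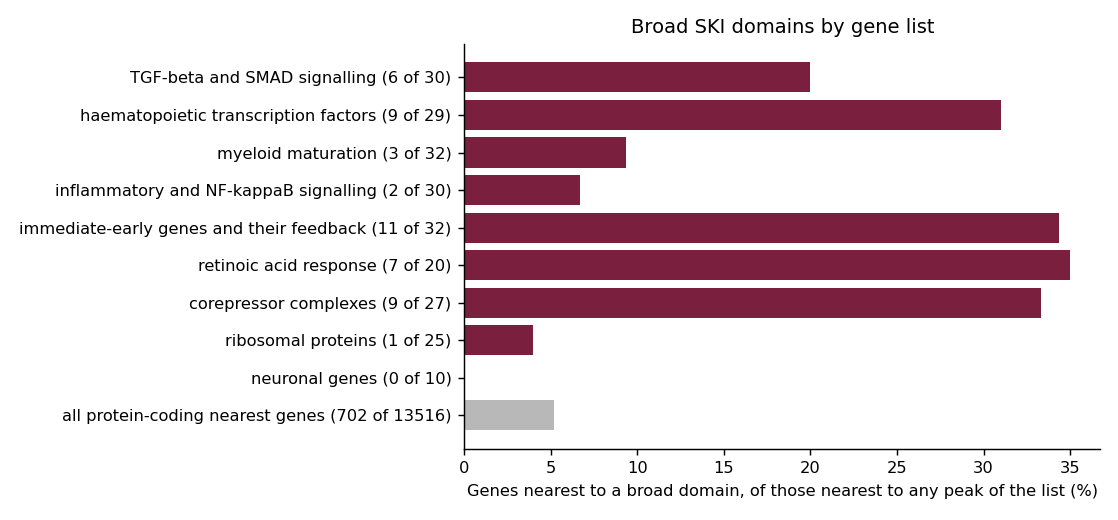
Share of genes nearest to a broad SKI domain, in percent of the genes of each list that are nearest to any peak of replicate 1 (horizontal axis), with both counts beside the name. Bars of the retinoic acid, immediate-early, corepressor and haematopoietic factor lists lie above 30%, and the grey bar for all protein-coding nearest genes is at 5.19%.

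A small set of broad domains had no peak in either other SKI list. There were 42 of them (4.59%), against 71.7% of shorter peaks and 70.6% of the list. Of the 42, 37 were in the TSS class, beside 85.3% of all broad domains. They were weak for their length, with a median fold enrichment of 23.1 (7.42 to 47.2), against 56.3 in the 768 domains met by both lists. The longest lay at SLC39A10, a zinc transporter gene (4115 bp, 36.9-fold), SRRT (3984 bp, 25.5-fold), PRKCD, protein kinase C delta (3866 bp, 16.1-fold), MARK2 (3723 bp, 11.9-fold) and RCC1 (3637 bp, 7.42-fold). The domain at ITPR1-AS1 was the only one of the 42 with a RUNX1 peak, at 13.6-fold, beside 30.1% of all broad domains with such a peak. Weaker and missing peaks in replicate 2 and the control line move with the shorter lists of those samples, whose part in these counts was not tested.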

How the data were processed

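ChIP-seq peak lists of 4 HL60 samples were used, 1 list per sample, and 10 further samples were not analysed here. MACS 1.4, Bowtie2, bcl2fastq and deepTools are named, without roles or order, in the submitters' processing notes, as are hg19 and GRCh37. Controls, thresholds and depth were not given in the sources used here. The deposited lists give each peak's −log10 p as the authors' caller wrote it. They also give a fold enrichment (a linear ratio to background) and a count of tags, both the authors' values. Per the file headers, the TSS class reaches 1250 bp and the upstream class 5000 bp. The list that defines the domains carries row numbers up to 75197 and holds 72.9% of them, by a filter that is not stated.

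A peak of another list counted as inside when 1 bp or more overlapped. Because the domains are wide, shares were also computed in 500 bp each side of the summit, and per kb. Wilson and exact Poisson intervals at 95% cover counting error only. No test was run, since each list is 1 sample and regions are not replicates. Code was tested on simulated data (numpy 2.4.6 and pandas 2.3.3 under Python 3.11.15). Gene names matched RefSeq for 97.3% of 13808 names. No genome of the files' build was used, so promoter sequences come from RefSeq's GRCh38.p14 table and were tied to domains by gene only. The domains and gene lists were chosen with earlier results of these data known. Named genes are the 10 longest domains, the 10 with most RUNX1 peaks, the 10 with most peaks of the other SKI lists, the 5 names with most domains, up to 4 of each gene list with the longest domains, the 5 longest without other SKI peaks, and 3 on each side of the length threshold. Other genes are given as members of a list or are said to be chosen later. Values of 1 gene of the lists are not reported here.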

Additional observations from a re-analysis of the deposited data

How the results depend on the processing

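Over 52 alternatives, 43 of 44 shares were higher in broad domains than in shorter peaks, and RUNX1 peaks per kb were higher in broad domains in 3 of 6. Of the 52, 16 stayed within the interval or set range of the reported value, 35 moved beyond it and 1 reversed. Some alternatives repeat another value, as where leaving out 1 SKI list gives the share of the other, so the tally is not one of independent checks. The exception among the shares was the RUNX1 share among peaks with −log10 p of 300 or more, 35.2% in broad domains and 48.0% in shorter peaks. At that strength broad domains held a replicate 2 peak in 95.4%, a control line peak in 96.2%, both in 92.8% and 0.112 RUNX1 peaks per kb. With a length threshold of 2000 bp the shares were 22.4% (RUNX1), 77.5% (replicate 2), 77.4% (control line), 68.1% (both) and 80.3% (TSS class). At that threshold 107 of 278 list genes had a domain, beside 21.5% of all protein-coding nearest genes. At 3000 bp these values were 48 and 5.19%. With 5000 bp the shares were 50%, 95.7%, 100%, 95.7% and 93.5% in the same order, with 0.112 RUNX1 peaks per kb. At 5000 bp 9 list genes had a domain, beside 0.281% of all protein-coding nearest genes. In 500 bp each side of the summit the shares were 25.2%, 83.7%, 86.7% and 77.7% for RUNX1, replicate 2, the control line and both. With −log10 p of at least 10, replicate 2 was present in 82.5% and both in 77.7%. In the TSS class RUNX1 was present in 25.4% and at 0.0787 per kb. Outside it the values were 57.8% and 0.207 per kb for RUNX1, 93.3% for replicate 2, 92.6% for the control line and 89.6% for both. A centre within 1000 bp of a start gave 64.6% in place of the TSS class. Leaving out replicate 2 or the control line gave 89.6 to 89.6% for the share met by all remaining SKI lists. For domains met by a wide peak of another SKI list, a width of 2000 bp gave 11.5%, and leaving out each list gave 0.109 to 1.53%, so the control line sets that value. The causes were not tested. No paired analysis was possible because each list is 1 sample and no result comes from a test. Depth is unknown, so a missing peak cannot be told apart from a shallow library.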
